A study of Carthamus tinctorius with 15 samples.

Results

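In safflower (Carthamus tinctorius), an oilseed of the daisy family, 182 genes were lower in root than in each of stem, leaf and flower. They were chosen by their measured levels, out of 33242 rows of the expression table. The level of a gene in a tissue was the mean of log2(FPKM + 1) over the 3 libraries of that tissue. FPKM is the number of fragments of a gene per kilobase of its length, scaled to a total of reads for the library. A gene was taken where the lowest of the stem, leaf and flower means exceeded the root mean by at least 2, and where those 3 means spanned less than 2. The first quantity is called the gap and the second the span below. Both run over stem, leaf and flower, so a positive gap means lower in root. A limit of 300 genes was not reached.

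The libraries were bulk RNA-seq of root, stem, leaf and flower, with 3 libraries of each tissue and 12 in all, and no treatment or genotype is named in the labels. The labels do not say whether libraries of a tissue came from different plants, so spreads and p-values cover only these libraries and may be of technical origin. The age of the plants is not given, and the 3 seed libraries of the series were not analysed here. Totals recovered from the FPKM values ran from 26183138 to 31500664 reads per library. The rows of the table held at least 99.991% of each total. These are thus totals of reads counted on genes, and the number of reads sequenced is not known. In bulk tissue, fewer cells that express a gene and less RNA of it per cell cannot be told apart. The table holds no gene identifiers, so genes are named by their row, counted from 1, and by the length in bases recovered from their values. Gene functions, positions, sequences and tissue markers were therefore not used here.

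As background, the root is the organ of anchorage and of water and mineral uptake, and it grows in the dark. Stem, leaf and flower together form the shoot, which is exposed to light and air. Plants are known to keep many genes of photosynthesis, of light responses and of the waxy cuticle active in shoot organs and largely silent in roots. Which of these roles, if any, the 182 genes have cannot be read from a table without names.

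Genes of this pattern were uncommon. They made up 0.876% of the 20769 genes that reached 1 FPKM in 3 or more libraries, which are called the genes tested below. All 182 passed that filter, as a gap of 2 all but requires. The same rule turned to the other tissues found 6 genes low in stem only, 78 low in leaf only and 1757 low in flower only. These counts are of FPKM as deposited, where the root minus flower difference in log2(FPKM + 1) had a median of 0.61 over all genes tested. With FPKM scaled by median ratios that difference was 0.01. The counts for the other tissues were not repeated with this scaling, so they also carry such shifts of a whole tissue. A gap of at least 2 without the limit on the span was met by 381 genes. The other 199 of these differed by 2 or more among stem, leaf and flower, and 113 of them were highest in leaf, 77 in flower and 9 in stem.

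**Figure D1:**
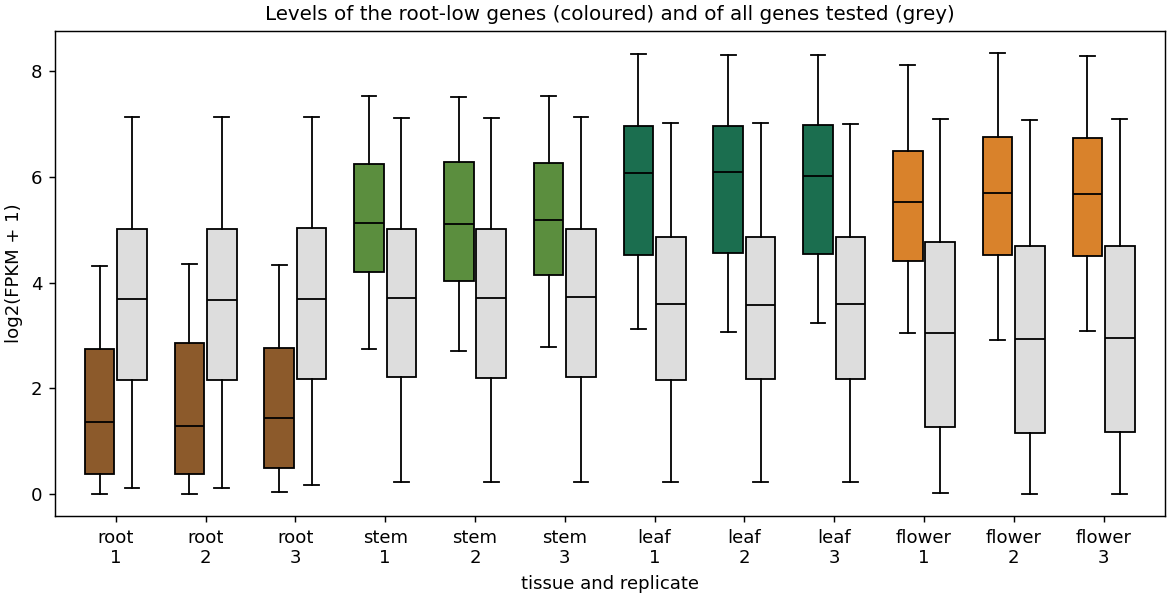
Levels of the 182 root-low genes (coloured boxes) and of the 20769 genes tested (grey boxes) in each of the 12 libraries, as log2(FPKM + 1). Boxes show the quartiles, lines the medians and whiskers the 5th to 95th percentile. The median of the coloured boxes lies below that of the grey ones in the 3 root libraries and above it in the other 9. The choice of genes favours this pattern.

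In root the members had a median level of 1.51 FPKM, with quartiles of 0.320 and 5.70 and a highest value of 58.5. Their medians were 35.6 FPKM for stem, 66.3 for leaf and 49.5 for flower. Over all genes tested the medians were 11.9 FPKM for root, 12.1 for stem, 11.1 for leaf and 6.95 for flower. The choice sets the members lower in root than elsewhere and favours genes well expressed in the other tissues. It does not fix these levels, and they carry no test. The lowest of the stem, leaf and flower means was 14.9 times the root mean at the median of the 176 members with a root read. The quartiles of this ratio were 6.90 and 39.7, and the smallest ratio was 4.23. In each of the 182 genes all 3 root libraries lay below all 9 other libraries, which the choice almost fixes. No such count over all genes tested was set beside this number, so it is a description only. The members held 0.116% ± 0.00217 of all FPKM in root (SD, n = 3). The share was 1.36% ± 0.00278 for stem, 2.40% ± 0.00536 for leaf and 2.11% ± 0.163 for flower. The wide spread in flower came from replicate 1, at 1.93%, against 2.21% and 2.20% in replicates 2 and 3.

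Being low in root did not always mean near silence there. No root read was found for 6 members, 19 others had a root mean under 0.1 FPKM, and 48 lay between 0.1 and 1 FPKM. A further 57 lay between 1 and 5 FPKM, 23 between 5 and 10, and 29 at 10 FPKM or more. From 0.1 FPKM upwards, classes with a higher level in root also had a higher level in leaf, which a fixed least gap favours. The median leaf mean was 7.98 FPKM for the 6 genes without a root read and 26.7 FPKM for those above 0 and under 0.1 FPKM in root. It was 21.8 FPKM for those from 0.1 to 1 FPKM in root, 66.5 from 1 to 5, 121 from 5 to 10 and 187 from 10 FPKM upwards. The median gap was 2.49 without a root read, 3.26 above 0 and under 0.1 FPKM, 3.25 from 0.1 to 1, 3.09 from 1 to 5 and 3.21 from 5 to 10 FPKM. It was 2.27 in the highest class.

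**Figure D2:**
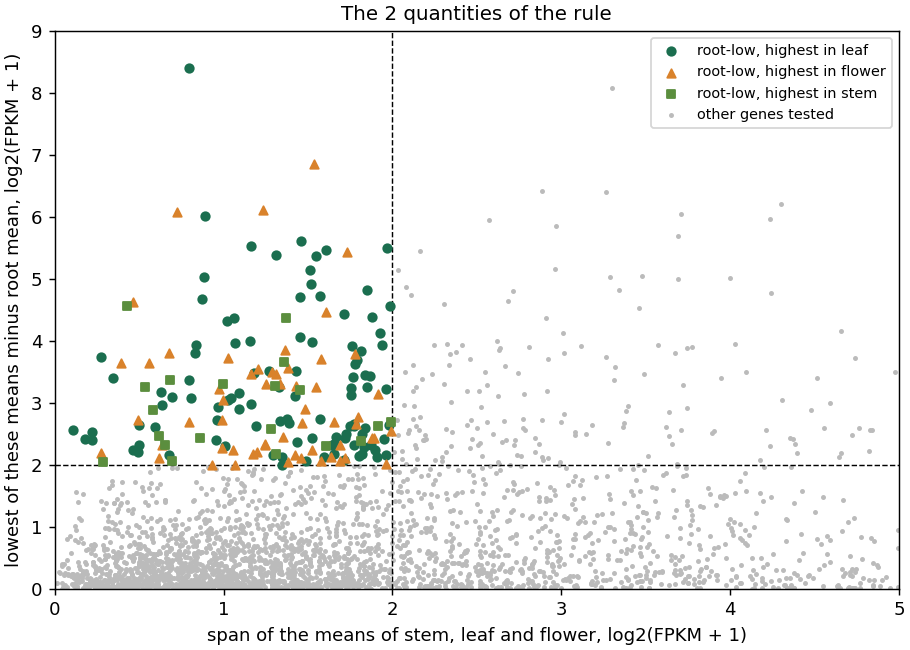
The span of the stem, leaf and flower means against the gap between the lowest of them and root, both in log2(FPKM + 1), for genes tested with a positive gap and a span under 5. Coloured symbols are the 182 root-low genes by the tissue of their highest mean, grey points are other genes, and dashed lines are the limits of 2; symbols crowd towards the gap limit, with 96 members under a gap of 3.

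The gap ran from 2.0005 to 8.40 with a median of 2.89. It was 4 or more in 31 members, 3 to 4 in 55 and under 3 in 96. Row 13236 (1316 bases) had the largest gap. It was at 0.0546, 0.0580 and 1.72 FPKM in the root libraries, at 493, 485 and 488 in the stem libraries, at 855, 841 and 847 in leaf, and at 619, 958 and 939 in flower. Root replicate 3 stood above the other root libraries, with 66 reads against 2 in each of them. The stem mean was 800 times the root mean, and 8671 times without root replicate 3, so that ratio rests on 1 library. The gap itself was 8.86 without it.

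Row 27880 (185 bases) followed with a gap of 6.85. It was at 2.92, 0.413 and 1.30 FPKM in root, 259, 278 and 278 in the stem libraries, 272, 263 and 272 in leaf, and 812, 777 and 759.5 in flower. Its root values rest on 15, 2 and 7 reads, and the ratio of the lowest other mean to root was 174, or 314 without root replicate 1. Stem and leaf overlapped in this gene and flower lay above both, by 1.52 over stem (SE 0.26, limma adjusted p = 0.000146) and 1.54 over leaf on the log2(FPKM + 1) scale. Row 27880 was also picked for its high level in flower, so this p-value is no independent support.

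Row 28169 (1918 bases) had 0.131, 0.0199 and 0.447 FPKM in root, 90.3, 92.4 and 88.7 in the stem libraries, 83.1, 77.9 and 83.3 in leaf, and 144, 226 and 221 in flower. Its gap was 6.12. The lowest other mean was 409 times the root mean, a ratio of 1077 without root replicate 3 and 282 without root replicate 2. Row 26679 (1547 bases) had 0.372, 0.222 and 0.576 FPKM in root, 94.4, 90.9 and 93.5 in the stem libraries, 125, 129.8 and 126 in leaf, and 139, 162 and 161 in flower. Stem, leaf and flower libraries of row 26679 did not overlap and lay in that order. In rows 28169 and 26679 flower replicate 1 was the lowest flower library.

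Among the 6 members without a root read, row 24535 (432 bases) was the highest elsewhere. It was at 0 in the 3 root libraries, 10.6, 13.3 and 12.2 FPKM in the stem libraries, 41.8, 49.5 and 40.7 in leaf, and 24.7, 48.1 and 39.9 in flower. Taking 3 counts over the 3 root libraries as the most that 0 reads allow gives 0.0835 FPKM in root, so the stem mean was at least 144-fold higher than the root mean. Row 12835 (264 bases) was also at 0 in all root libraries, with 17.3, 22.2 and 18.6 FPKM in the stem libraries, 21.9, 17.4 and 20.1 in leaf, and 4.61, 6.84 and 4.35 in flower. Its flower mean was at least 38.5-fold higher than root by the same limit of 3 counts, and its flower libraries lay below all stem and leaf libraries. Reads of the same fragment cannot be recognised in these values, so such limits cover counting error only.

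At the other end stood members with substantial root expression. Row 8812 (486 bases) had the highest root mean, at 53.0, 64.6 and 57.8 FPKM in root, against 330.3, 334 and 349.8 in the stem libraries, 352, 357 and 362 in leaf, and 299, 330.2 and 319 in flower. Row 32837 (2498 bases) had 40.7, 39.6 and 41.1 FPKM in root, 189.9, 187 and 189 in the stem libraries, 213, 215 and 215 in leaf, and 226, 231 and 228 in flower. Their gaps were only 2.42 and 2.19, and their lowest other means were 5.40 and 4.66 times the root mean. The root libraries of both genes still lay far below every other library.

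**Figure D3:**
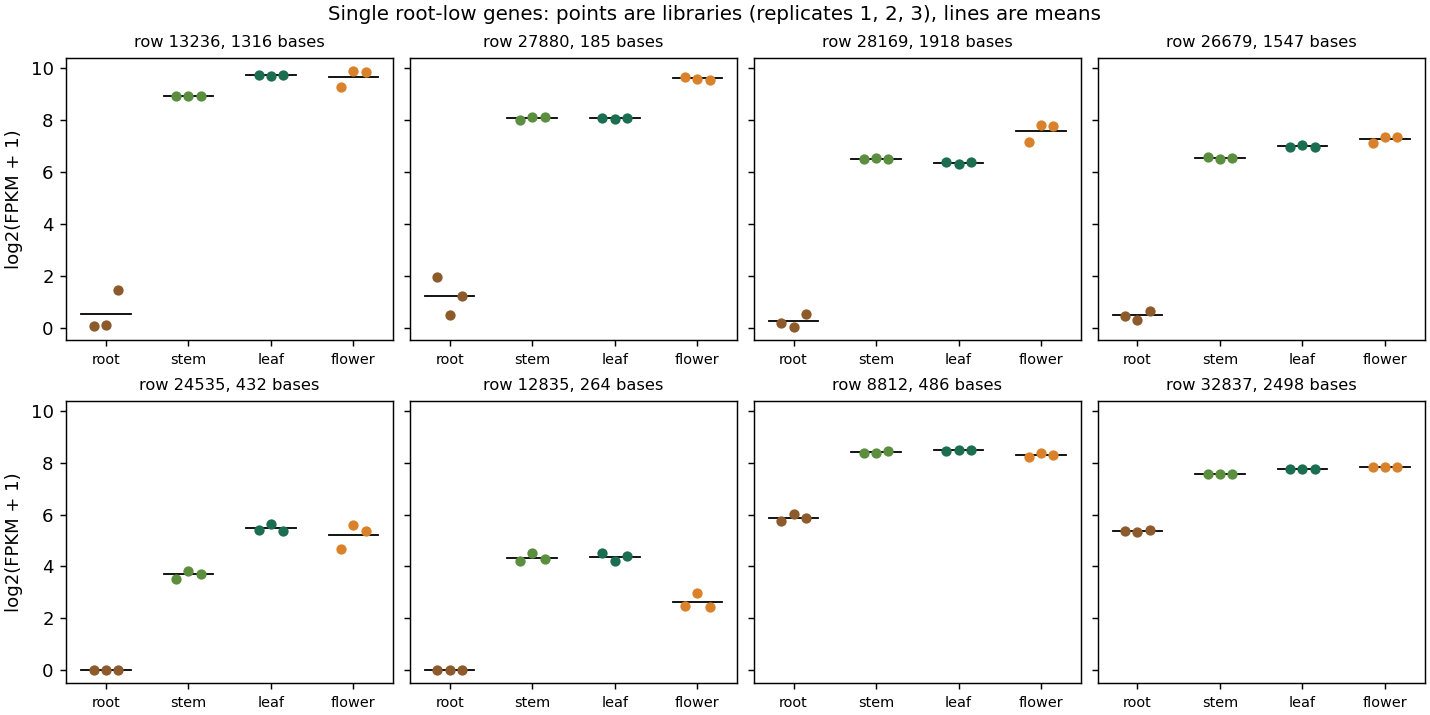
Values of 8 root-low genes in every library as log2(FPKM + 1): the 4 with the largest gap, the 2 highest without a root read and the 2 with the highest root mean. Points are replicates 1, 2 and 3 from left to right and lines are tissue means; root replicate 3 stands apart for row 13236, and root is at 0 for rows 24535 and 12835.

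Genes just inside and just outside the limits differed little in gap or in span, but could differ widely in level. Row 23771 (1531 bases) and row 16872 (249 bases) were the last inside, with gaps of 2.0017 and 2.0005. Row 16872 was also among the lowest members, at 0 in the root libraries and at 1.98, 4.72 and 2.76 FPKM in the stem libraries, 7.92, 7.39 and 13.0 in leaf, and 4.49, 3.42 and 1.71 in flower. First outside were row 26018 (1375 bases) with a gap of 1.98 and row 27454 (426 bases) with 1.97. Their root means were 18.5 and 14.8 FPKM. Within 0.1 of the gap limit lay 11 members and, on the other side, 14 genes whose span was small enough. At the span limit, row 23159 (1151 bases) was inside with 1.992 and row 296 (2599 bases) outside with 2.009.

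The pattern was read again in libraries that had not been used to choose the genes. For this the rule was applied to 2 replicate numbers of every tissue and the gap was read in the libraries of the remaining number. Chosen without replicate 1, 191 genes met the rule, and 169 of them (88.5%) had a gap of at least 2 in replicate 1, against 1.83% of the genes tested. Without replicate 2 it was 169 of 177 (95.5%), against 1.93%, and without replicate 3 it was 166 of 180 (92.2%), against 1.78%. The median gap in the held-out libraries was 2.82, 2.91 and 2.79, close to the 2.79, 2.85 and 2.86 in the libraries used for the choice. Root was the lowest of the 4 held-out libraries for 190 of 191, 177 of 177 and 180 of 180 genes. The exception was row 6208 (27 bases), which was not among the 182 members. Its single root read gave 1.33 FPKM in root replicate 1, against 1.30 in stem replicate 1. No p-value is given, since each held-out replicate leaves 1 library per tissue, and libraries of 1 tissue may share their source. The shares of the genes tested include the chosen genes. Replicates of a tissue differed little next to a gap of 2, so the outcome was nearly fixed by the choice. These shares thus describe how alike the libraries were and are no independent support for the pattern.

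Above root, the order of the other tissues varied between members. As deposited, by mean log2(FPKM + 1), 104 members were highest in leaf, 58 in flower and 20 in stem, but with FPKM scaled by median ratios 68 were highest in leaf, 105 in flower and 9 in stem. The commonest full order was leaf, flower, stem and root, in 67 members, followed by flower, leaf, stem and root in 42 and leaf, stem, flower and root in 37. Stem was the lowest of the 3 shoot tissues in 109 members, flower in 46 and leaf in 27. The span had a median of 1.37. It was under 0.5 in 16 members, 0.5 to 1 in 35, 1 to 1.5 in 58 and 1.5 or more in 73.

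Differences among leaf, flower and stem were tested with limma over all genes tested, with Benjamini-Hochberg adjustment. A gene was called where the adjusted p was under 0.05 and the difference reached 1 on the log2(FPKM + 1) scale. The rule keeps these differences under 2, so the counts describe the members and are not read further. Of the 182 members, 75 (41.2%) were called higher in leaf than in stem, against 11.4% of the genes tested, and 10 (5.49%) higher in stem than in leaf, against 13.9%. In the pair of flower and stem, 54 (29.7%) were called higher in flower, against 16.3% of the genes tested, and 12 (6.59%) higher in stem, against 39.0%. In the pair of leaf and flower, 41 (22.5%) were called higher in leaf, against 37.1% of the genes tested, and 24 (13.2%) higher in flower, against 18.6%. A total of 51 members (28.0%) were called in none of these pairs, against 30.9% of the genes tested.

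The balance of leaf and flower changed with the scaling. As deposited, the median over all genes tested of the leaf minus flower difference was 0.48, and that of the flower minus stem difference was -0.58. Over the members these medians were 0.28 and 0.47. With median-ratio scaling they were -0.20 and 1.15 over the members, and 0.12 and -0.06 over all genes tested. Of the 182 members, 137 still met the rule with this scaling, so its cap on these differences need not hold for the others. Calls between leaf and flower then counted 64 members (35.2%), against 55.8% of the genes tested. Higher in leaf were 24 of the 182 members, against 6327 of the 20769 genes tested (30.5%). Higher in flower were 40, against 5261 (25.3%). Of the called members 37.5% were thus higher in leaf, and 63.1% as deposited. Over all genes tested, 6327 of 11588 called genes were higher in leaf with scaling, and 7707 of 11561 as deposited. Calls between flower and stem counted 105 members (57.7%), against 53.3% of the genes tested. Higher in flower were 100, against 5188 genes tested (25.0%), and higher in stem 5, against 5873 (28.3%). Of the called members 95.2% were higher in flower, and 81.8% as deposited. Over all genes tested, 5188 of 11061 called genes were higher in flower with scaling, and 3389 of 11479 as deposited. Calls between leaf and stem counted 99 members (54.4%), against 23.9% of the genes tested. Higher in leaf were 91, against 2819 genes tested (13.6%), and higher in stem 8, against 2152 (10.4%). The members' balance of leaf and stem, with 91.9% of called members higher in leaf after scaling and 88.2% as deposited, did not turn. Over all genes tested, 2819 of 4971 called genes were higher in leaf with scaling, and 2358 of 5242 as deposited. Which scaling is right was not tested.

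**Figure D4:**
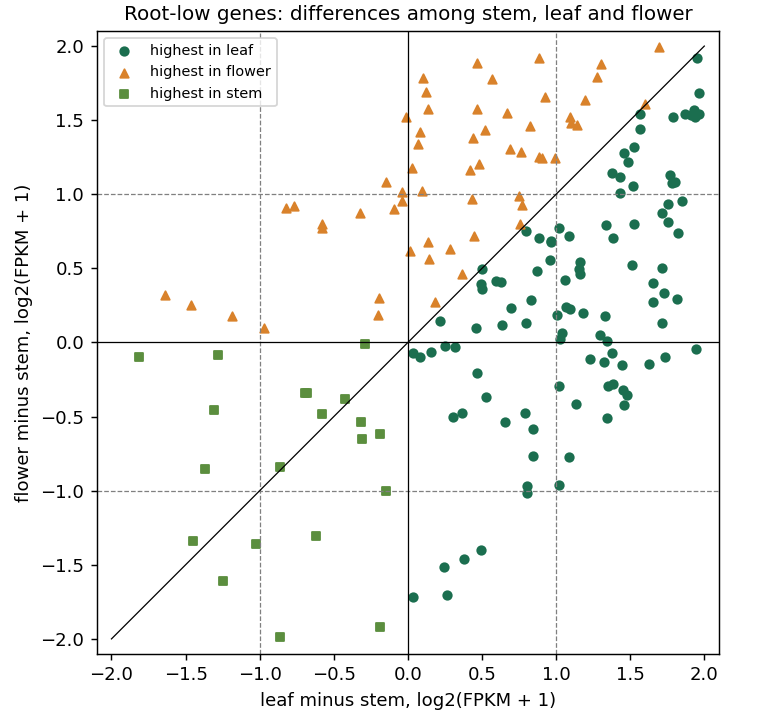
Leaf minus stem against flower minus stem for the 182 root-low genes, in log2(FPKM + 1), with symbols by the tissue of the highest mean. Dashed lines mark differences of 1 and the diagonal marks equal levels in leaf and flower. As deposited, 75 members (41.2%) were called higher in leaf than in stem, against 11.4% of the genes tested. Called higher in flower than in stem were 54 (29.7%), against 16.3%. With median-ratio scaling these counts were 91, against 13.6% of the genes tested, and 100, against 25.0%.

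Row 30726 (240 bases) came next to row 13236 among the members highest in leaf. It had 5.24, 5.89 and 5.14 FPKM in root, 233, 218 and 226 in the stem libraries, 630.5, 647 and 655 in leaf, and 357, 323 and 297 in flower. Leaf exceeded stem by 1.51 (SE 0.066, limma adjusted p = 1.97e-09), and no library of leaf overlapped with one of flower. The highest level in flower was that of row 26214 (833 bases), with 38.6, 34.8 and 41.1 FPKM in root, 344, 350.1 and 344 in the stem libraries, 639.7, 638 and 637 in leaf, and 1203, 1366 and 1364 in flower. Its tissues formed a ladder without overlap, and flower exceeded stem by 1.92 (SE 0.062, limma adjusted p = 3.38e-11). Rows 30726 and 26214 were picked for their high level in leaf and in flower, so these p-values are no independent support.

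Members highest in stem were the fewest. Row 28600 (778 bases) led them with 6.79, 8.69 and 8.85 FPKM in root, 236, 222 and 229 in the stem libraries, 86.9, 74.6 and 88.6 in leaf, and 73.2, 97.0 and 102 in flower. Leaf and flower overlapped in this gene and both lay below stem. The leaf minus stem difference was -1.45 and the flower minus stem difference -1.34 (SE 0.12 each, limma adjusted p = 7.38e-07 and 6.95e-07). Row 28600 was picked for its high level in stem, so these p-values are no independent support. Row 373 (806 bases) had 2.01, 1.33 and 1.23 FPKM in root, 131, 135 and 133 in the stem libraries, 50.6, 50.7 and 51.1 in leaf, and 88.8, 65.7 and 66.8 in flower. Its flower replicate 1 was the highest flower library, unlike in most members.

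The largest called differences came close to the limit of the rule. The genes of this paragraph and the next were picked among called genes. Their adjusted p under 0.05 was thus fixed by the pick and is no independent support. Row 59 (411 bases) differed most for leaf over stem, at 1.97 (SE 0.24, limma adjusted p = 1.37e-05), and had 3 root reads in all. It was at 0, 0.0929 and 0.167 FPKM in root, 10.8, 6.89 and 10.3 in the stem libraries, 38.6, 39.7 and 37.7 in leaf, and 20.1, 35.1 and 44.4 in flower. Its flower libraries spread widely around the leaf values, with replicate 1 lowest. Row 17130 (3258 bases) differed most for stem over leaf, with a leaf minus stem difference of -1.81 (SE 0.099, limma adjusted p = 1.36e-08). It was at 1.09, 0.739 and 1.37 FPKM in root, 35.4, 36.0 and 39.2 in the stem libraries, 9.66, 9.77 and 9.86 in leaf, and 32.7, 35.2 and 35.1 in flower. In row 17130 leaf thus lay far below stem, and the flower libraries just below the stem libraries. Row 32855 (477 bases) had the largest difference of leaf over flower, at 1.99, with 0.226, 0.160 and 0.503 FPKM in root, 30.7, 32.0 and 29.0 in the stem libraries, 116, 119 and 127 in leaf, and 24.7, 30.8 and 34.1 in flower. In row 32855 only leaf stood above the other shoot tissues, and the stem and flower libraries overlapped.

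Row 566 (312 bases) had the largest called difference of flower over leaf, with a leaf minus flower difference of -1.96 (SE 0.24, limma adjusted p = 8.31e-06). It was at 1.38, 0.612 and 0.659 FPKM in root, 19.1, 24.5 and 23.8 in the stem libraries, 4.77, 6.92 and 8.16 in leaf, and 19.7, 30.5 and 36.8 in flower. Stem and flower overlapped in row 566, and leaf was the lowest of the shoot tissues. Row 23159 had that of flower over stem, at 1.99 (SE 0.090, limma adjusted p = 7.03e-10), with 2.78, 2.46 and 2.50 FPKM in root, 18.8, 21.9 and 19.2 in the stem libraries, 68.0, 69.3 and 62.4 in leaf, and 71.6, 88.4 and 87.5 in flower. Leaf and flower both lay above stem there, without overlap. Row 21794 (2499 bases) had that of stem over flower, with a flower minus stem difference of -1.99 (SE 0.13, limma adjusted p = 1.76e-08). It was at 3.42, 3.27 and 4.36 FPKM in root, 119.6, 121 and 117 in the stem libraries, 62.9, 69.3 and 63.7 in leaf, and 23.1, 33.3 and 32.6 in flower. Its 4 tissues did not overlap.

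Some members were almost level across the shoot. Row 16178 (891 bases) had the smallest span, 0.11, and row 8812 the next, 0.18. Row 16178 was at 2.82, 1.71 and 2.92 FPKM in root, 20.7, 19.4 and 20.9 in the stem libraries, 18.7, 21.9 and 22.2 in leaf, and 16.9, 19.3 and 21.9 in flower. Its stem, leaf and flower libraries overlapped. These genes were picked for their small span, so their shoot levels are a description and carry no test.

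The rule used the mean of each tissue and not the order of its libraries. In flower replicate 1, a library whose values departed from the other flower libraries over the whole table, 135 of the 182 members (74.2%) had their lowest flower value, against 30.7% of the genes tested. Only 35 members (19.2%) had their highest flower value there, against 45.4%. The median ratio of flower replicate 1 to the mean of replicates 2 and 3 was 0.856 over the members and 1.04 over the genes tested. The lowest value fell in flower replicate 1 for 78 of the 104 members highest in leaf, 46 of the 58 highest in flower and 11 of the 20 highest in stem. The members are more highly expressed in flower than most genes tested, and the part of level in this difference was not tested. Without flower replicate 1 the rule met 182 genes, 177 of them members.

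In root, the few reads of the lowest members fell mainly in replicate 3. Members above 0 and under 0.1 FPKM in root had 18 reads in root replicate 1, 16 in replicate 2 and 89 in replicate 3, summed over 19 genes. Root replicate 3 was the highest root library for 14 of the 25 members under 0.1 FPKM, those without a read included (56.0%), against 30.0% of the 940 genes tested at such root levels. Those 940 genes, these members included, had 780 reads in root replicate 1, 743 in replicate 2 and 1358 in replicate 3. The summed reads of those 940 genes thus also leaned to replicate 3, but the share of genes highest there was larger among the members. Row 6276 (2021 bases) had 0, 0 and 15 root reads, with 84.0, 79.1 and 78.8 FPKM in the stem libraries, 146, 146 and 145 in leaf, and 39.8, 50.3 and 51.8 in flower. Over all 182 members, 83 (45.6%) were highest in root replicate 3, against 36.0% of the genes tested. Root replicate 3 also had the highest recovered total of the root libraries, 29184532 reads. In members at 10 FPKM or more in root it held 35.9% of the root reads, against 72.4% in those above 0 and under 0.1 FPKM. The source of these reads was not tested. Without root replicate 3 the rule met 181 genes, 178 of them members.

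**Figure D5:**
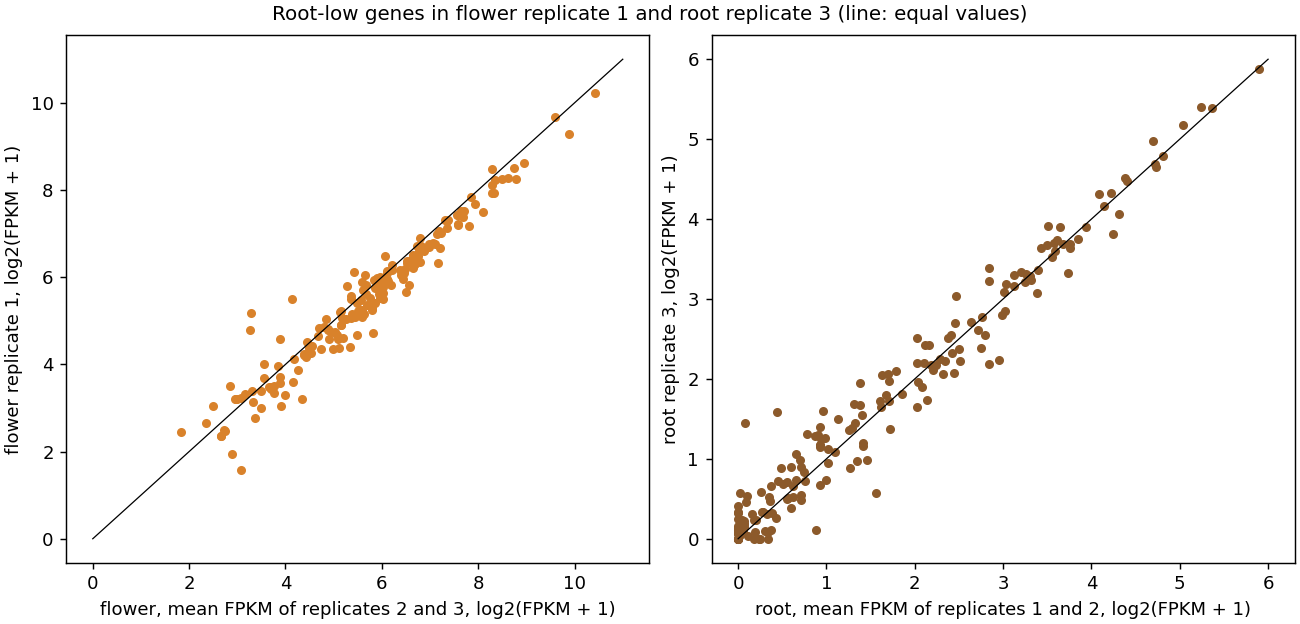
The 182 root-low genes in flower replicate 1 against the mean of flower replicates 2 and 3 (left), and in root replicate 3 against the mean of root replicates 1 and 2 (right), as log2(FPKM + 1). The line marks equal values. In flower replicate 1, 135 members (74.2%) had their lowest flower value, against 30.7% of the genes tested. Row 13236 lies far above the line in root, at 1.72 FPKM against a mean of 0.0563.

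Replicates of the members lay closer together in stem and leaf than in root and flower. The median SD of log2(FPKM + 1) over the 3 libraries was 0.15 for root, 0.068 for stem, 0.045 for leaf and 0.16 for flower among the members. Among all genes tested it was 0.089 for root, 0.089 for stem, 0.088 for leaf and 0.14 for flower. The members had few reads in root and many in leaf, and the part of read number in this was not tested. Their recovered lengths, which the rule did not use, had a median of 1282 bases with quartiles of 777 and 1910. The genes tested had a median of 1350 bases with quartiles of 745 and 2059. No member was identical to another row in all 12 libraries.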

How the data were processed

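The authors deposited 1 table of FPKM values, with a column per library and no gene identifiers. Tools listed, per the submitters' processing notes, were HTSeq, HISAT2, fastp and R 3.2.0, without their role. Sources used here give no build, annotation or strand. Nor do they say how shared reads were counted, so genes with near-identical copies have uncertain levels. The members, tests and lists were chosen with earlier results of these data known.

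Whole reads, gene lengths and library totals were recovered from the FPKM values, within 0.01 reads, for 100% of the 26625 rows above 0. For rows of few reads a recovered length may be an underestimate. This step and the fit below were tested on simulated data.

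The model, fitted with limma 3.58.1 (R 4.3.3), covered log2(FPKM + 1) of the 20769 genes that reached 1 FPKM in 3 or more libraries. It had a mean per tissue and a mean-variance trend over the 12 libraries, and Benjamini-Hochberg adjustment was made per pair of tissues. Differences on this scale understate the change of low genes. Root contrasts chose the members and were not tested. Named genes were the extremes of gap, level, span and called difference, the members without root reads highest elsewhere, and those nearest to each limit. Row 6208, row 6276 and the genes of the closing section were picked after their values were seen. The comparison of lowest values in flower replicate 1 was also chosen after the data were seen. The 3 seed libraries were not analysed here. Alternatives were another pseudocount, scaling, filter, span, trend and a replicate block, and leaving out each library.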

Additional observations from a re-analysis of the deposited data

How the results depend on the processing

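The least gap was not varied. The number of genes that met the rule moved most, among the alternatives run, with the limit on the span, with 51 genes at a span under 1 and 283 at a span under 3, against 182. It was 254 with a pseudocount of 0.1, 184 with median-ratio scaling, 185 after rescaling to TPM and 182 with medians over libraries. The members among them numbered 170, 137, 179 and 174. Leaving out 1 library gave 177 to 183 genes. Called members between flower and stem numbered 105 with median-ratio scaling (57.7%, against 53.3% of the genes tested), and 66 as deposited (36.3%, against 55.3%). Single directions, whose shares of the genes tested are given above, moved by over 1.5 times under this scaling too. It gave 24 members higher in leaf than in flower (41 as deposited) and 40 higher in flower than in leaf (24 as deposited). It gave 100 higher in flower than in stem (54 as deposited) and 5 higher in stem than in flower (12 as deposited). The other totals of called members per pair, and the genes that kept the gap in a held-out replicate, stayed within 1.5 times under the alternatives run. The members' share counted in reads was 0.136% for root, 1.46% for stem and 2.60% for leaf. Without the 10 highest members it was 0.0907% of FPKM for root, 1.02% for stem, 1.77% for leaf and 1.46% for flower. Flower replicate 1 held the lowest flower value of 84 of 109 members at 1 FPKM or more in root and 51 of 73 under it, a division chosen after seeing the data. Of 384 gaps of the 24 named genes under alternatives, 38 moved by more than 1 SD. The largest changes came with the pseudocount of 0.1 in members without a root read. The gap of row 24535 rose from 3.70 to 6.92 and that of row 12835 from 2.63 to 5.72. Gaps of members with few root reads thus depend strongly on the pseudocount. The gap of member row 16872 fell under the limit, to 1.74 without stem replicate 2 and 1.85 with median-ratio scaling, that of row 566 to 1.87 without leaf replicate 3 and that of row 23771 to 1.92 without leaf replicate 3. The limit of 300 was not reached, so the alternative without it gives the same genes.

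Same-numbered libraries of different tissues did not deviate together, with correlations from -0.036 to 0.025. With a replicate block, 85 members (46.7%) were called between leaf and stem, against 25.2% of the genes tested, 66 (36.3%) between flower and stem, against 55.3%, and 65 (35.7%) between leaf and flower, against 55.7%. The members' counts were the same without the block. Root levels under 0.1 FPKM rest on a few reads, which limits ratios to root.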

Other observations

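What sets the order of rows in the table is not known. Of the 182 members, 4 were directly followed by another member in the table. No such count for other genes was set beside this number, so it is a description only. Row 3506 (2039 bases) and row 3507 (753 bases) were such a pair, with gaps of 6.01 and 3.93, and row 3507 had 0, 0 and 0.0455 FPKM in root against 30.1, 25.6 and 24.5 in leaf. Row 24535, without a root read, was followed by row 24536 (4116 bases), with a gap of 2.44.

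Flower replicate 1 was not low for every member. Row 5686 (312 bases) had 35.2 FPKM in flower replicate 1 and 8.62 and 8.83 in replicates 2 and 3, a ratio of 4.03 to their mean. Row 32796 (1096 bases) had 26.8, 7.46 and 9.82 FPKM, a ratio of 3.11. The lowest ratio, 0.262, was that of row 33026 (268 bases), where flower replicate 1 had 1.96 FPKM and the other flower libraries 7.50 and 7.47. Row 3507 came next, at 0.426. In these genes the level of flower rests on which library is read.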
